A study of Mus musculus with 12 samples.

Results

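The genes described here are 36 members of the unfolded protein response and of the ATF4 branch of the integrated stress response, given as a list of symbols. The list uses no measured value as a criterion, but it was drawn up with earlier results of these data known. They were looked up by gene symbol in the annotation of a spotted 2-colour array: 35 had a probe, 34 had values and are among the 14524 genes tested. The members had 46 of the 30357 probes that passed a filter on missing values, and the gene value of Atf4 leaves out 1 of its 3 because it lacked a value on 1 array. The probe of Xbp1, the factor made from an mRNA spliced by IRE1, had no value on any array, and Trib3, a pseudokinase gene induced by CHOP and ATF4, was not analysed here because no probe carried its symbol. RNA came from mouse 3T3 cells, an established fibroblast line, kept as control cells or exposed to Shld1 at 10 nM, 100 nM or 1 µM, with 3 arrays for each of the 4 groups. Shld1 is a small synthetic ligand of a destabilizing domain derived from FKBP12, which it shields from degradation together with any protein fused to it. The series title asks for the effect of Shld1 on these cells. The labels state neither the time of exposure nor whether the cells held a fusion to that domain, and they do not say whether the 3 samples of a group were separate cultures, so every p-value measures the spread between these samples only.

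Secreted and membrane proteins fold in the endoplasmic reticulum (ER). When unfolded protein builds up there, the sensors IRE1 (Ern1), ATF6 and PERK (Eif2ak3) are released from the chaperone BiP (Hspa5) and raise the transcription of chaperones, folding enzymes and the ER-associated degradation machinery, which returns misfolded proteins to the cytosol for the proteasome. PERK also phosphorylates eIF2α, which lowers translation in general but raises that of ATF4, and ATF4 switches on genes of amino acid supply, redox balance and, through CHOP (Ddit3), cell death. ATF4 is reached from other eIF2α kinases too, for instance when amino acids run short.

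The regulatory sites of this response can be read in the promoters of the members. Windows of 250 bases before to 50 after the gene start were taken from RefSeq on GRCm38.p6 and matched 32 of the 36 members. The ER stress element (ERSE), CCAAT and CCACG with 9 bases between them, is the site at which NF-Y and ATF6 are known to bind. An exact match on either of the 2 strands was found in 9 members (28.1% of 32), namely Hspa5, Hsp90b1, Pdia6, Calr, Canx, Dnajc3, Creld2, Syvn1 and Derl3, against 0.137% of 27025 genes with a window. The related ERSE-II, ATTGG and CCACG with any base between them, was in Dnajb11 and Herpud1 (6.25% of members and 0.0444% of all genes). The site of ATF4 with a C/EBP partner, searched as TGATGNAA, was in Herpud1, Trib3, Chac1 and Asns (12.5% of members and 4.51% of all genes), and the 8 letters TGACGTGG, a site of XBP1 and ATF6, were in no member window and in 0.714% of all. The members were listed as known genes of this response, so their higher shares describe the list and are not a test of it. Hsp90b1 held 2 ERSE matches, and no match in a member's window overlapped another. The stretches below come from members whose array values are given in full further on, 4 with an ERSE and 2 with the ATF4 site. Capitals mark the fixed letters of the motif, and each stretch is read 5′ to 3′ along the gene's strand.
Hspa5, chr2:34771995-34772073, plus strand: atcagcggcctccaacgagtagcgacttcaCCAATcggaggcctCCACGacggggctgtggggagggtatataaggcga
Pdia6, chr12:17266461-17266539, plus strand: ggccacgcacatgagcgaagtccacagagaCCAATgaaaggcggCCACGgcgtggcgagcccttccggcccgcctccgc
Dnajc3, chr14:118937797-118937875, plus strand: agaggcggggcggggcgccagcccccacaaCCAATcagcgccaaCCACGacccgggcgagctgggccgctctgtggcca
Calr, chr8:84847045-84847123, minus strand: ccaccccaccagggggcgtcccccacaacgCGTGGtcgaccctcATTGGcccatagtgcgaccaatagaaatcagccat
Chac1, chr2:119351019-119351086, plus strand: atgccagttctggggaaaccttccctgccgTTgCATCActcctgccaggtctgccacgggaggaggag
Asns, chr6:7693210-7693262, minus strand: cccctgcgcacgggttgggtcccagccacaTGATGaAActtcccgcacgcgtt
Counted from the gene start, the first base of the motif lies at -65 in Hspa5, -98 in Pdia6 and -105 in Dnajc3, all in the direction of the gene, and at -162 in Calr, in the opposite direction. The ATF4 site lies at -193 in Chac1, in the opposite direction, and at -23 in Asns. A match describes the letters only.

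Every array value is a log2 ratio of the 3T3 sample, labelled with Cy5, over a commercial mouse reference RNA labelled with Cy3, after each array was centred on its median. A value of 1 is thus 2-fold above the reference, and ratios of different genes do not rank their transcript levels. The log base was taken as 2, and sample over reference as the direction, from the dyes and the signs of fibroblast genes. With the opposite direction all signs given here would turn. Each array held values for 30649 to 33615 of the 38784 probes. Of 14 fibroblast markers, 13 lay above the reference in control cells, led by Lum at 4.20 ± 0.27 and Postn at 3.18 ± 0.50 (SD, n = 3), and 0 of 8 measured leukocyte markers did. Of the 14, 10 passed as higher and 1, Pdgfra, as lower, at an adjusted p under 0.05 in limma. Above the reference also lay 3 of 6 epithelial, 2 of 3 endothelial and 2 of 5 adipocyte markers measured, of which 0, 1 and 2 passed. The direction was taken partly from fibroblast genes, so their side is no separate support for it. The array averages of the fibroblast list were 1.26 to 1.55 in control cells and 0.94 to 1.20 at 1 µM, without overlap. They were 1.09 to 1.33 at 10 nM and 1.17 to 1.42 at 100 nM, both overlapping control. For the leukocyte list the averages were -1.86 to -0.73 in control cells and -0.95 to -0.56 at 1 µM. They were -0.99 to -0.62 at 10 nM and -1.59 to -0.87 at 100 nM, and every dose overlapped control. No marker passed at any dose in limma, and the largest fibroblast change at 1 µM was that of Lum, -1.26. The part of these lists in the values below was not tested, and in bulk RNA fewer cells of a type cannot be told apart from less RNA per cell.

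Against the reference, more members were called low than high, and for most of them the doses overlapped. In control cells 5 of the 34 members were higher than the reference (14.7%) and 10 lower (29.4%) at an adjusted p under 0.05 in limma with Benjamini-Hochberg correction over all genes, where 26.5% of all genes were higher and 19.6% lower. The median log2 ratio of the members was -0.22 and that of all genes 0.03. Without centring, the members split into 3 higher and 17 lower, and of all genes called 40.5% were higher in place of 57.5%, so the balance of signs depends on where 0 is set (the median of all genes was then -0.12). Of the 15 members called, 13 were called in the same direction without centring, all but Syvn1 and Phgdh. This ratio leaves out the spread of the reference itself and, with no dye swap, any dye effect of a probe. Over the 12 arrays, as centred, 4 members were always above 0, Pdia3, Canx, Syvn1 and Psat1, and 9 always below, Hspa5, Creld2, Sel1l, Atf6, Ern1, Ddit3, Chac1, Ppp1r15a and Mthfd2. The distance between a member's lowest and highest array was 0.82 at the median of the members, from 0.38 for Hspa5 to 4.70 for Chac1.

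**Figure D1:**
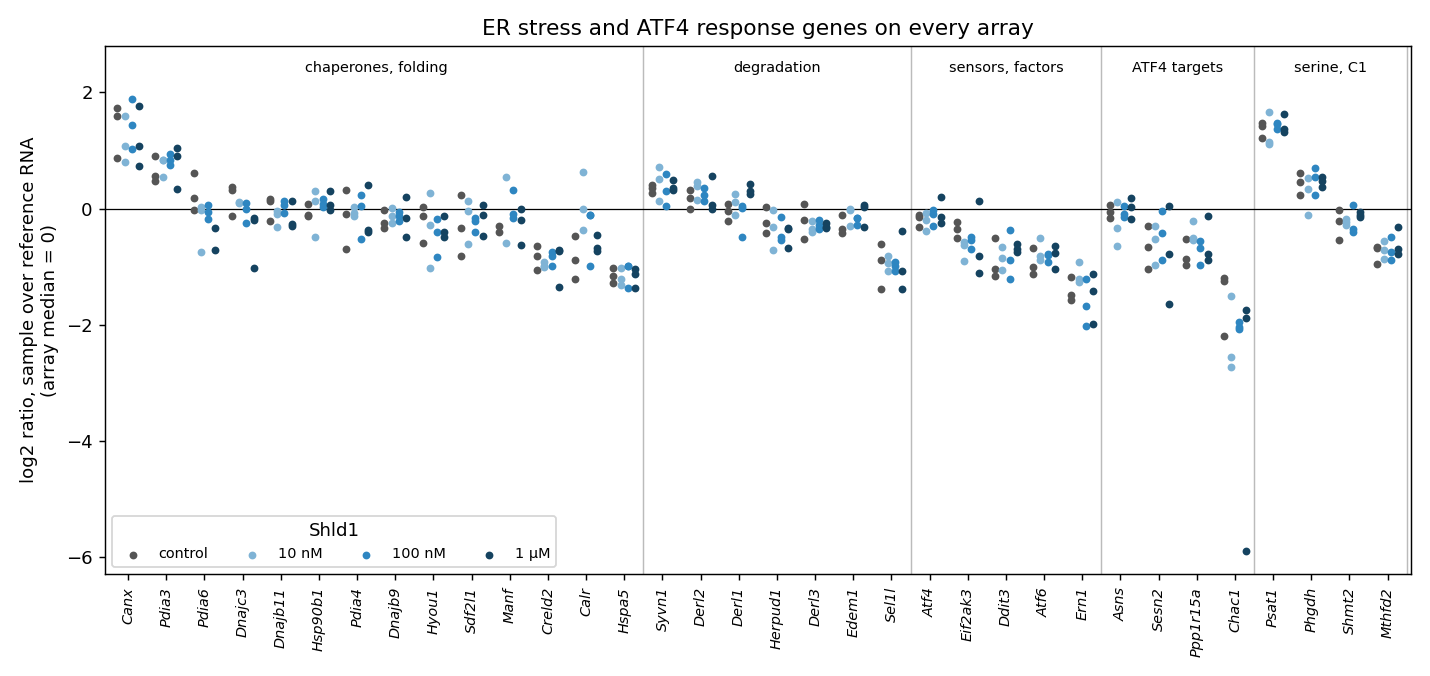
Log2 ratio of sample over reference RNA (vertical axis) of the 34 measured members, grouped by role. Each point is an array, coloured by Shld1 dose with control at the left of each gene. For most genes the doses overlap, and the values lie between 1.88 for Canx and -5.90 for Chac1 on the 1 µM array of replicate 2.

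Hspa5 encodes BiP, the Hsp70 chaperone of the ER lumen whose transcript is the usual gauge of the unfolded protein response. Its log2 ratios were -1.29, -1.02 and -1.16 in control cells, -1.21, -1.31 and -1.03 at 10 nM, -1.37, -0.99 and -1.0 at 100 nM and -1.04, -1.14 and -1.38 at 1 µM. No dose stood apart, and this was the narrowest spread of any member. The control mean was -1.16 ± 0.13 (SD, n = 3, adjusted p = 1.93e-05 against the reference, limma). The log2 change at 1 µM against control was -0.03 (SE 0.16, 95% interval -0.38 to 0.33). At 10 nM the change was -0.03 and at 100 nM 0.04 (SE 0.16 each).

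The ER chaperones and folding enzymes, all 14 of which were measured, had a median log2 change of 0.0048 at 1 µM, with 7 above control and 7 below. In control cells the lectin chaperone genes stood on opposite sides of the reference, Canx on 2 probes and Calr on 1. Canx, which encodes the membrane-bound calnexin, averaged 1.40 ± 0.46 in control cells (SD, n = 3, adjusted p = 0.00058 against the reference, limma), while Calr, which encodes its soluble relative calreticulin, averaged -0.86 ± 0.37 (n = 3, adjusted p = 0.00642, limma). Pdia3, the disulfide isomerase that partners the lectin chaperones, had 0.48, 0.57 and 0.90 in control cells, 0.55, 0.83 and 0.83 at 10 nM, 0.94, 0.76 and 0.84 at 100 nM and 0.34, 0.90 and 1.05 at 1 µM. It stayed above the reference throughout, with overlapping groups, and averaged 0.65 ± 0.22 in control cells (n = 3, adjusted p = 0.00276, limma). The isomerase genes had control means of -0.16 ± 0.51 for Pdia4 and 0.25 ± 0.33 for Pdia6 (n = 3 each), neither of which passed against the reference. The other chaperone genes in control cells were close to the reference for Hsp90b1, the Hsp90 of the ER (-0.06 ± 0.11, n = 3), for Dnajb11, a BiP co-chaperone (0.02 ± 0.21, n = 3), and for Hyou1, a nucleotide exchange factor for BiP (-0.23 ± 0.32, n = 3). Creld2, which encodes a secretory-pathway protein induced by ER stress, had -0.65, -1.05 and -0.82 in control cells, -1.01, -1.0 and -0.92 at 10 nM, -0.82, -0.99 and -0.76 at 100 nM and -0.72, -1.35 and -0.73 at 1 µM. It lay below the reference on every array, at -0.84 ± 0.20 in control cells (n = 3, adjusted p = 0.000384, limma). Sdf2l1, which encodes an ER protein found with BiP co-chaperones, had -0.31 ± 0.53 (n = 3), and Manf, a secreted ER stress protein, had -0.41 and -0.31 on its 2 control arrays. The changes at 1 µM of the chaperone genes not described further ran from -0.17 (SE 0.17) for Dnajb11 to 0.17 (SE 0.20) for Hsp90b1. None was larger than its standard error. Canx changed by -0.25 at 10 nM, 0.05 at 100 nM and -0.21 at 1 µM (SE 0.33 each). Its 2 probes differed, at -0.65 (SE 0.47) and 0.16 (SE 0.28) at 10 nM and -0.39 and -0.03 at 1 µM.

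Calr gave the lowest unadjusted p of any member at any dose. It lay at -1.22, -0.89 and -0.48 in control cells, -0.37, -0.01 and 0.64 at 10 nM, -0.11, -0.99 and -0.10 at 100 nM and -0.68, -0.74 and -0.45 at 1 µM. All 3 arrays at 10 nM were above all 3 controls, while at 100 nM and 1 µM the groups overlapped. The log2 change was 0.95 (SE 0.30, 95% interval 0.29 to 1.60) at 10 nM, 0.46 (SE 0.30) at 100 nM and 0.24 (SE 0.30) at 1 µM. With an unadjusted p of 0.00876 and an adjusted p of 1.00 in limma at 10 nM, it did not pass, and the values do not follow the order of the doses. The gene was picked out here for its p-value.

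Pdia6 and Dnajc3, both with an ERSE printed above, were the members with the smallest unadjusted p at 1 µM. The ratio of Pdia6, a disulfide isomerase known to act on IRE1, was -0.03, 0.61 and 0.17 in control cells, 0.03, -0.76 and -0.02 at 10 nM, 0.06, -0.18 and -0.06 at 100 nM and -0.34 and -0.71 at 1 µM, where replicate 2 had no value. Both 1 µM arrays were below all controls, though an array at 10 nM was lower still. The change at 1 µM was -0.78 (SE 0.27, 95% interval -1.37 to -0.18, unadjusted p = 0.0151, adjusted p = 0.999 in limma). Dnajc3, which encodes the co-chaperone p58IPK, had 0.32, 0.37 and -0.12 in control cells, 0.12 and 0.10 at 10 nM, where replicate 1 had no value, -0.24, 0.00 and 0.10 at 100 nM and -1.03, -0.20 and -0.17 at 1 µM. The 1 µM arrays of Dnajc3 all lay below the controls, with replicates 2 and 3 just under the lowest control, and the change was -0.66 (SE 0.24, 95% interval -1.18 to -0.13, unadjusted p = 0.0194, adjusted p = 0.999 in limma). Without the 1 µM array of replicate 1 it was -0.38. A trend over dose rank gave -0.21 per step for each of the 2 genes, with unadjusted p of 0.0279 for Pdia6 and 0.0183 for Dnajc3 and adjusted p of 1.00 in limma for both.

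Dnajb9, which encodes the co-chaperone ERdj4 and is a target of XBP1, had 2 probes on opposite sides of the reference. Over the 12 arrays probe 11754 averaged 0.79 ± 0.27 and probe 33150 -1.10 ± 0.29 (SD, n = 12), a gap of 1.88. Their log2 changes at 1 µM were -0.18 (SE 0.24) and 0.29 (SE 0.25), and that of their mean 0.05 (SE 0.18). Edem1 showed the same split, at 0.75 ± 0.26 on probe 27857 and -1.10 ± 0.22 on probe 33260 (n = 12), with changes at 1 µM of 0.33 (SE 0.22) and 0.10 (SE 0.20). Gaps of over 1 between a gene's probes occurred in 2 of the 10 members with several complete probes and in 25% of 3855 such genes, with a median gap of 0.55 for members and 0.57 for all. Of the 10 members, 6 had probes on both sides of 0, beside 1871 of the 3855 genes. These members were Dnajb9, Edem1, Derl1, Derl2, Asns and Shmt2, of which Derl1 did so narrowly, at -0.01 and 0.12. Where a gene stands against the reference thus depends on the probe, and the probes cannot be set against each other as levels.

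**Figure D2:**
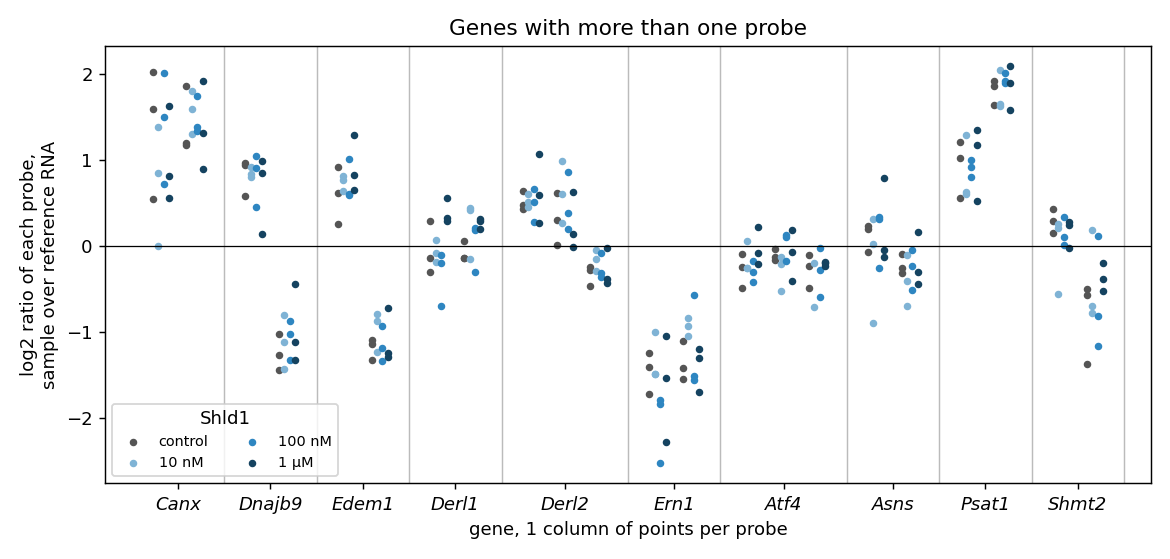
Log2 ratio of each probe over the reference (vertical axis) for the 10 members with several probes, 1 column of points per probe and 1 point per array, coloured by Shld1 dose. The probes of Dnajb9 and of Edem1 stand 1.88 and 1.85 apart, while the doses of these 4 probes overlap.

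The degradation genes were all measured, and 5 of 7 lay above control and 2 below at 1 µM, with a median log2 change of 0.04, while at 100 nM 2 lay above and 5 below, with a median of -0.03. Sel1l, the adaptor of the ubiquitin ligase HRD1, had -1.39, -0.60 and -0.88 in control cells, -0.81, -0.93 and -1.07 at 10 nM, -1.08, -0.92 and -0.98 at 100 nM and -0.39, -1.07 and -1.39 at 1 µM. Syvn1, which encodes that ligase, had 0.35, 0.41 and 0.26 in control cells, 0.72, 0.13 and 0.50 at 10 nM, 0.30, 0.59 and 0.04 at 100 nM and 0.50, 0.32 and 0.36 at 1 µM. With arrays centred, the partners stood on opposite sides of the reference on every array, each on 1 probe. Without centring Syvn1 did not pass against the reference. Sel1l was lower than the reference in control cells at -0.96 ± 0.40 (SD, n = 3, adjusted p = 0.00116, limma), while Syvn1 was higher at 0.34 ± 0.07 (n = 3, adjusted p = 0.0480, limma). The changes at 1 µM were 0.01 (SE 0.25) for Sel1l and 0.05 (SE 0.18) for Syvn1. Herpud1, a ligase-associated membrane protein gene that holds both an ERSE-II and an ATF4 site in its window, was at -0.21 ± 0.23 in control cells (n = 3) and had changes of -0.15 (SE 0.21) at 10 nM, -0.18 (SE 0.21) at 100 nM and -0.24 (SE 0.21) at 1 µM. None of these changes is much larger than its error. Edem1, which encodes a mannosidase-like protein that hands glycoproteins to degradation, had -0.36, -0.11 and -0.42 in control cells, -0.03, -0.29 and -0.01 at 10 nM, -0.16, -0.17 and -0.29 at 100 nM and 0.02, 0.05 and -0.32 at 1 µM, a change of 0.21 (SE 0.16) at 1 µM with overlapping groups. Its control mean of -0.30 ± 0.16 passed against the reference (n = 3, adjusted p = 0.0447, limma), on the mean of the 2 probes that disagree.

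The derlins are membrane proteins of the retrotranslocation channel. Derl1 was the member with the smallest unadjusted p among those above control at 1 µM, at -0.22, 0.08 and -0.04 in control cells, -0.12, 0.11 and 0.26 at 10 nM, -0.50, 0.01 and 0.04 at 100 nM and 0.42, 0.30 and 0.26 at 1 µM. All 1 µM arrays were above all controls, with a change of 0.39 (SE 0.18, unadjusted p = 0.0478, adjusted p = 0.999 in limma), and its 2 probes gave 0.44 (SE 0.21) and 0.33 (SE 0.20). At 1 µM the change was 0.04 (SE 0.18) for Derl2 and -0.09 (SE 0.16) for Derl3, and the difference between the derlins was not tested.

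**Figure D3:**
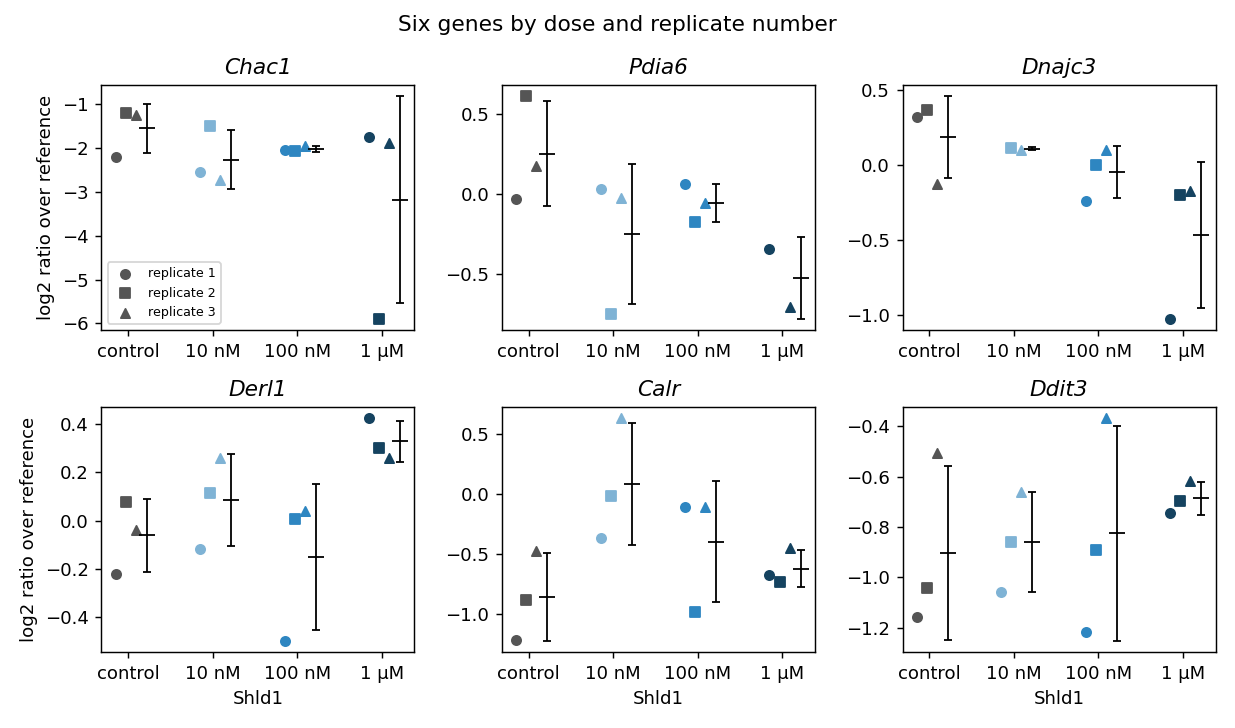
Log2 ratio over the reference (vertical axes, each with its own scale) of 6 members by Shld1 dose. Symbols give the replicate number, the bar to the right of each group is the mean with its SD, and 1 array is missing for Pdia6 at 1 µM and for Dnajc3 at 10 nM. The 1 µM value of Chac1 at -5.90 stands alone, and replicate 3 of Ddit3 is the highest in every group.

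All 3 ER stress sensors were below the reference in control cells, 2 of them past the test. Ern1, the IRE1α gene, had -1.57, -1.48 and -1.18 in control cells, -1.27, -1.21 and -0.92 at 10 nM, -1.68, -2.02 and -1.21 at 100 nM and -1.99, -1.42 and -1.12 at 1 µM. It was the member furthest below the reference among those that passed in control cells (-1.41 ± 0.21, SD, n = 3, adjusted p = 9.27e-05, limma). Its change at 1 µM was -0.10 (SE 0.25). Chac1 averaged lower in control cells, at -1.55 ± 0.56 (n = 3), but did not pass as centred (adjusted p = 0.0553, limma). Without centring Chac1 did pass. Atf6 had -1.0, -1.13 and -0.68 in control cells, -0.82, -0.88 and -0.51 at 10 nM, -0.92, -0.78 and -0.80 at 100 nM and -1.04, -0.64 and -0.76 at 1 µM, with a change of 0.13 (SE 0.17) at 1 µM. In control cells it averaged -0.94 ± 0.23 (n = 3, adjusted p = 0.000101, limma). Eif2ak3, the PERK gene, had -0.51, -0.24 and -0.35 in control cells, -0.63, -0.90 and -0.57 at 10 nM, -0.49, -0.70 and -0.55 at 100 nM and 0.13, -0.82 and -1.10 at 1 µM. Its 10 nM arrays lay below all controls and its 1 µM arrays on both sides of them. The change was -0.33 (SE 0.26) at 10 nM and -0.23 (SE 0.26) at 1 µM. The SE rests on 1 spread shared by all groups. The SD was 0.14 in control cells, 0.18 at 10 nM, 0.11 at 100 nM and 0.65 at 1 µM (n = 3 each).

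Atf4 and Ddit3, the transcription factor genes of the PERK branch, did not separate by dose. Atf4 is controlled largely at translation, so its transcript is a partial readout. It had -0.33, -0.14 and -0.11 in control cells, -0.39, -0.19 and -0.07 at 10 nM, -0.29, -0.10 and -0.02 at 100 nM and 0.21, -0.14 and -0.24 at 1 µM, a change of 0.13 (SE 0.16) at 1 µM. Ddit3, whose product CHOP is induced by ATF4, had -1.16, -1.04 and -0.51 in control cells, -1.06, -0.86 and -0.66 at 10 nM, -1.22, -0.89 and -0.37 at 100 nM and -0.74, -0.70 and -0.62 at 1 µM. The control mean was -0.90 ± 0.35 (SD, n = 3, adjusted p = 0.000929 against the reference, limma). The change at 1 µM was 0.22 (SE 0.23, 95% interval -0.28 to 0.72), an interval within 2-fold either way.

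Chac1, which encodes a glutathione-degrading enzyme and is among the sharpest targets of ATF4 and CHOP, had the largest change of any member at 1 µM, and its size turned on a single array. The values were -2.20, -1.20 and -1.25 in control cells, -2.55, -1.5 and -2.74 at 10 nM, -2.04, -2.07 and -1.96 at 100 nM and -1.74, -5.90 and -1.89 at 1 µM. All but the 1 µM array of replicate 2 lay between -2.74 and -1.20. The change was -1.63 (SE 0.86, 95% interval -3.51 to 0.26, adjusted p = 0.999 in limma) with that array and -0.26 without it. At 10 nM it was -0.71 (SE 0.86) and at 100 nM -0.47 (SE 0.86). The SD was 0.56 in control cells, 0.66 at 10 nM, 0.06 at 100 nM and 2.36 at 1 µM (n = 3 each). The SE rests on 1 spread shared by all groups, so the array at -5.90 widens it at every dose. The gene has 1 probe, and whether that spot was dim or flawed was not analysed here.

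The remaining ATF4 targets did not pass at any dose. Asns, which encodes asparagine synthetase and holds the ATF4 site printed above, had 0.07, -0.06 and -0.16 in control cells, -0.34, 0.11 and -0.65 at 10 nM, -0.09, 0.04 and -0.15 at 100 nM and 0.17, 0.02 and -0.17 at 1 µM. The groups overlapped at every dose, with changes of -0.24 (SE 0.19) at 10 nM, -0.02 (SE 0.19) at 100 nM and 0.06 (SE 0.19) at 1 µM. Ppp1r15a, which encodes GADD34, the phosphatase subunit that reverses eIF2α phosphorylation, had -0.97, -0.86 and -0.52 in control cells, -0.52, -0.54 and -0.22 at 10 nM, -0.97, -0.56 and -0.68 at 100 nM and -0.78, -0.13 and -0.89 at 1 µM. It was lower than the reference in control cells at -0.79 ± 0.24 (SD, n = 3, adjusted p = 0.00165, limma) and had changes of 0.36 (SE 0.22) at 10 nM, 0.04 (SE 0.22) at 100 nM and 0.18 (SE 0.22) at 1 µM. Sesn2, which encodes the leucine sensor sestrin 2, spread from -1.64 to 0.04 over the 3 arrays at 1 µM alone, with changes of 0.06 at 10 nM, 0.21 at 100 nM and -0.13 at 1 µM (SE 0.38 each).

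The enzymes of serine synthesis and the mitochondrial one-carbon pathway, whose genes ATF4 is known to control, gave small changes. All 4 lay above control at 1 µM, but by 0.03 to 0.17 on the log2 scale, each within its error, and at 10 nM 2 of the 4 lay below, Phgdh at -0.19 (SE 0.19) and Psat1 at -0.06 (SE 0.17). Psat1, a transaminase of serine synthesis, had 1.47, 1.21 and 1.42 in control cells, 1.14, 1.67 and 1.12 at 10 nM, 1.47, 1.45 and 1.36 at 100 nM and 1.31, 1.62 and 1.38 at 1 µM. It was above the reference in control cells (1.37 ± 0.14, SD, n = 3, adjusted p = 9.62e-06, limma), on both of its probes. Phgdh, the first enzyme of that path, had 0.61, 0.46 and 0.23 in control cells, 0.33, 0.52 and -0.11 at 10 nM, 0.55, 0.70 and 0.23 at 100 nM and 0.47, 0.55 and 0.36 at 1 µM. It averaged 0.43 ± 0.19 in control cells (n = 3, adjusted p = 0.0217, limma), with overlapping groups. Mthfd2, a mitochondrial folate enzyme, had -0.95, -0.68 and -0.66 in control cells, -0.72, -0.88 and -0.57 at 10 nM, -0.89, -0.49 and -0.74 at 100 nM and -0.69, -0.78 and -0.32 at 1 µM. It was lower than the reference in control cells at -0.76 ± 0.17 (n = 3, adjusted p = 0.000487, limma), and Shmt2, which splits serine in mitochondria, had -0.26 ± 0.26 (n = 3). The value of Shmt2 averages 2 probes on opposite sides of the reference, at 0.14 and -0.56 over the 12 arrays, whose changes at 1 µM were -0.13 (SE 0.22) and 0.45 (SE 0.36).

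Across the doses, no member passed, and neither did any other gene. At 1 µM 0 of 34 members and 0 of 14524 genes (0%) had an adjusted p under 0.05 in limma. At an unadjusted p under 0.05 there were 3 members, Derl1 above control and Pdia6 and Dnajc3 below, which is 8.82% of members against 4.26% of all genes. At 100 nM the counts were 0 of 34 members and 0 genes adjusted (0%), and 0 members unadjusted against 3.02% of all genes. At 10 nM they were 0 members and 0 genes adjusted (0%) and 1 member unadjusted, Calr, 2.94% of members against 2.48% of all genes. An F test over the doses gave 0 members and 0 genes adjusted (0%) and again 1 member unadjusted, Calr, against 2.91% of genes. The trend over dose rank gave 0 members and 0 genes adjusted (0%) and 2 members unadjusted, 5.88% against 3.56%. The comparisons share the control arrays.

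The changes were small. The median log2 change of the members was 0.04 at 10 nM, 0.05 at 100 nM and 0.05 at 1 µM, beside -0.01, 0.02 and -0.02 for all genes tested. These member medians turned on single arrays: the one at 10 nM was -0.01 without control replicate 1 or 2, the one at 100 nM was -0.01 without 100 nM replicate 2, and the one at 1 µM was 0.01 without 1 µM replicate 2. The median size, whatever the sign, was 0.14 at 10 nM, 0.07 at 100 nM and 0.13 at 1 µM for members, beside 0.13, 0.13 and 0.15 for all genes. At 1 µM 1 member, Derl1, had all its arrays above all controls, against 3.68% of genes, and 2 members, Pdia6 and Dnajc3, had all below, against 4.81%. At 100 nM 1 member, Manf, was above on 3 arrays against 2 controls, beside 4.24% of genes, and 0 were below, against 3.99%. At 10 nM Calr was above, against 3.48%, and Eif2ak3 below, against 3.66%. The 95% interval of the log2 change lay within 2-fold either way for 31 members at 1 µM (91.2%, against 83% of all genes), the exceptions being Pdia6, Dnajc3 and Chac1. It did so for 30 members at 100 nM (88.2%, against 84.8%) and for 30 at 10 nM (88.2%, against 84.8%).

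**Figure D4:**
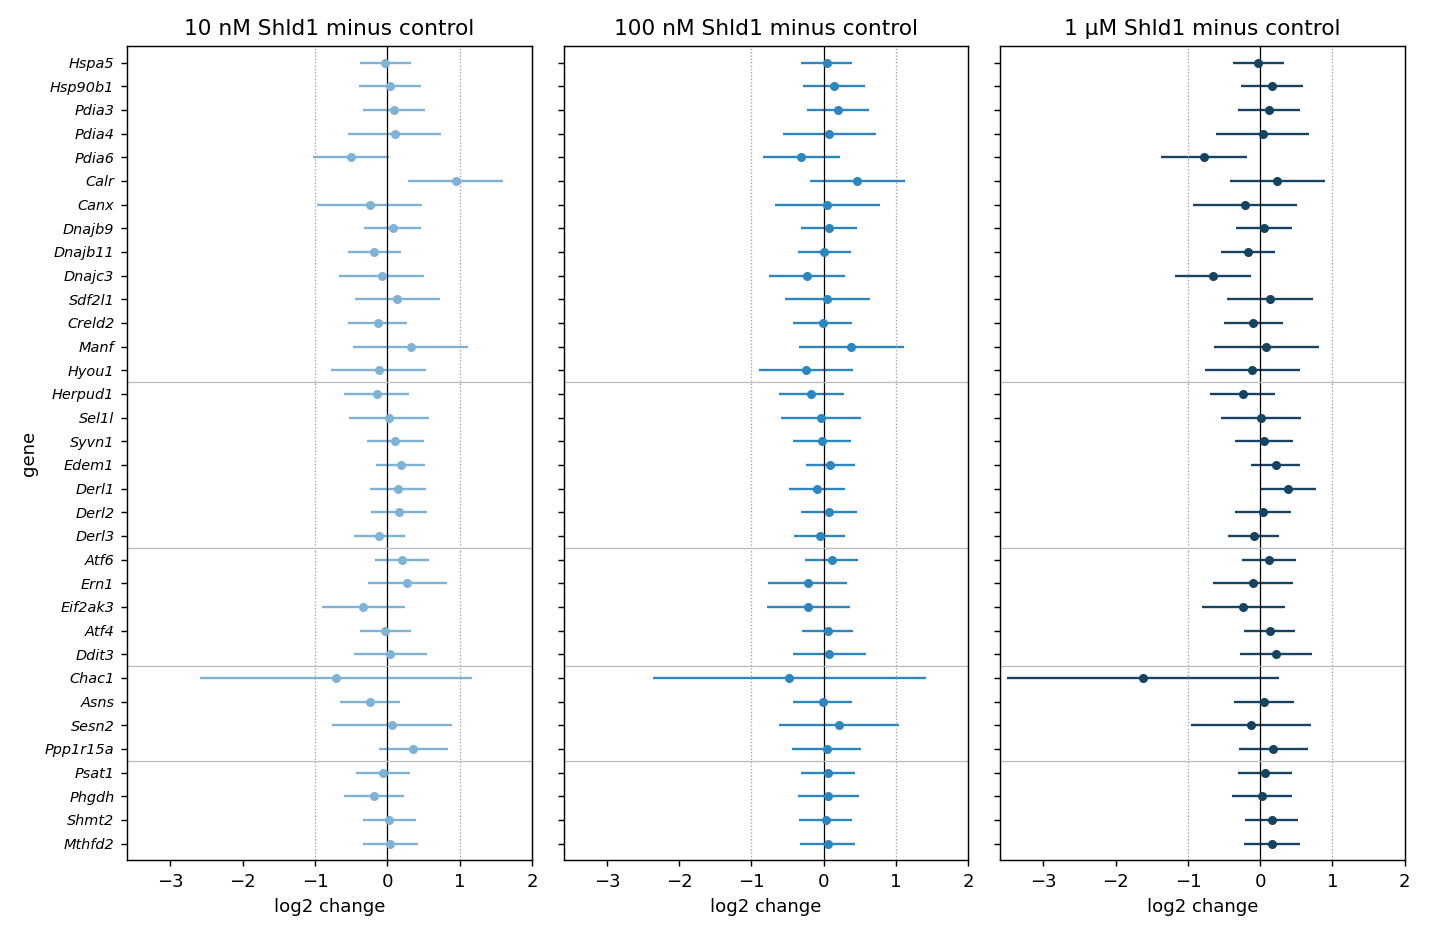
Log2 change against control (horizontal axes) of the 34 members at 10 nM, 100 nM and 1 µM Shld1, with 95% intervals from limma and dotted lines at 2-fold. Horizontal lines separate the roles in the order chaperones, degradation, sensors and factors, ATF4 targets, and serine enzymes, and the widest intervals are those of Chac1.

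Members that share a promoter motif were set side by side. The 11 measured members with an ERSE or ERSE-II had a median log2 change of -0.09 at 1 µM, 3 of them above control, and the 19 with a window but neither motif had 0.06, with 15 above. The changes at 1 µM ran from -0.78 to 0.24 and from -1.63 to 0.22, and the median of all genes tested was -0.02. At 10 nM the medians were -0.11 (3 above) and 0.04 (13 above), and at 100 nM -0.01 (5 above) and 0.06 (14 above). The members come from the same arrays and are not replicates, and the difference between the 2 sets of members was not tested. The 3 measured members with the ATF4 site, Herpud1, Chac1 and Asns, had changes of -0.24, -1.63 and 0.06 at 1 µM. The value of Chac1 was -0.26 without the 1 µM array of replicate 2. In the same order the changes were -0.15, -0.71 and -0.24 at 10 nM and -0.18, -0.47 and -0.02 at 100 nM.

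No member differed between replicate numbers past the adjusted test. The numbers run with the array numbers in the sample titles, and the labels do not say what else the arrays of a number share. Within every replicate number the array numbers also rise from control to 1 µM in the order of the doses. Dose, and with it any trend over dose rank, thus cannot be told apart from the order of the array numbers. In limma, an F test over replicate numbers had 0 members and 2 of 14524 genes at an adjusted p under 0.05 (0.0138%), and 5 members at an unadjusted p under 0.05 (14.7%, against 10.9% of all genes): Ddit3, Ern1, Canx, Phgdh and Calr. Ddit3 lay between -1.22 and -0.74 on the 4 arrays of number 1 and between -0.66 and -0.37 on those of number 3, the highest of its group at each dose (unadjusted p = 0.0138, adjusted p = 0.336, limma). Ern1 lay between -1.99 and -1.27 on the arrays of number 1 and between -1.21 and -0.92 on those of number 3, also the highest at each dose. Canx, at 1.60, 1.73 and 0.87 in control cells, 1.59, 0.80 and 1.08 at 10 nM, 1.88, 1.03 and 1.44 at 100 nM and 1.77, 1.07 and 0.73 at 1 µM, ran the other way, with 1.59 to 1.88 on number 1 and 0.73 to 1.44 on number 3. For Ddit3 the means were -1.04, -0.87 and -0.54 over numbers 1, 2 and 3, and -0.90 in control cells, -0.86 at 10 nM, -0.83 at 100 nM and -0.69 at 1 µM.

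Beyond the members, 154 further genes of the same pathways were listed and 143 measured, and none passed at any dose in limma. At an unadjusted p under 0.05, 2 of the 143 were higher and 3 lower at 1 µM, where 4.26% of all genes tested fell under that p. At 100 nM 1 was higher and 1 lower (3.02% of all genes), and at 10 nM 1 higher and 2 lower (2.48%). The further genes named below were picked for their p-values. The medians at 1 µM were 0.05 over 37 further genes of the ATF4 pathway (22 above control), -0.01 over 17 aminoacyl-tRNA synthetases (8 above), -0.01 over 24 genes of folding and glycoprotein quality control (10 above), -0.02 over 25 of translocation and glycosylation (10 above), -0.03 over 19 of degradation (7 above) and -0.07 over 21 sensors, regulators and death genes (8 above). Cebpg had the smallest unadjusted p of these genes at 1 µM and at 10 nM. It encodes a C/EBP protein that pairs with ATF4, and had -1.39, -1.38 and -0.56 in control cells, -0.27, -0.15 and -0.45 at 10 nM, -0.24, -0.35 and -0.73 at 100 nM and 0.43, -0.24 and -0.35 at 1 µM. Control replicates 1 and 2 were the lowest arrays, and the changes were 0.82 (SE 0.26) at 10 nM, 0.67 (SE 0.26) at 100 nM and 1.06 (SE 0.26, unadjusted p = 0.00187, adjusted p = 0.999 in limma) at 1 µM. Vcp, the ATPase that extracts proteins from the ER membrane, had changes of -0.41 (SE 0.18) at 10 nM, -0.12 (SE 0.18) at 100 nM and -0.47 (SE 0.18) at 1 µM. Among the synthetases, Farsa was at -0.42 (SE 0.16) and Farsb, which encodes the other subunit of the same enzyme, at 0.44 (SE 0.22) at 1 µM and 0.49 (SE 0.22) at 100 nM. Tars was at -0.39 (SE 0.17) at 10 nM, and Qars at -0.96 (SE 0.38) at 100 nM, where an array at -2.32 lay far below the other two.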

How the data were processed

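The authors deposited a log ratio, read here as log2, of the Cy5 over the Cy3 channel per probe and array, with dyes per the labels' protocols. Of the log base, background correction, normalization and filters nothing was stated in the sources used here, and scanner intensities were not analysed here. Blank cells and cells marked null were treated as missing. Probes took their symbol from the platform annotation (26173 with 1 symbol, 28 with several). After median centring, a probe needed values on 2 or more arrays in every group. Genes took the mean over complete probes (values on all 12 arrays) and otherwise the probe with most values. The 14524 genes were fitted in limma 3.58.1 (R 4.3.3) with group as the only term and Benjamini-Hochberg correction at 0.05. The fit was tested on 10 simulated sets of 14524 genes with 200 of them changed at 1 µM. It called 11.4% of the 1.5-fold, 51.4% of the 2-fold, 90.4% of the 4-fold and 98.4% of the 8-fold changes.

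The members and gene lists were chosen with earlier results of these data known. Values on every array are given for 10 central members where measured, for those called against the reference and for those with the smallest unadjusted p (4 others at 1 µM, 2 each at 100 nM, at 10 nM and over replicate numbers), and of the further genes the 3 with the smallest p per dose are named. Promoter windows were searched in Python 3.11.15, and figures drawn with matplotlib 3.10.9. Pairs of arrays correlated at 0.656 to 0.846 and shared at most 0.146% of equal values. The number of arrays limits the precision. Alternatives were other centring, scaling, probe filters, gene values and variance models, the replicate number as a block, and leaving out each array.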

Additional observations from a re-analysis of the deposited data

How the results depend on the processing

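No member passed at any dose under any of the 25 alternatives in which it had a value, or in the F test over doses and the trend under the 24 that gave one. Of the 102 changes of a member at a dose, 47 kept their sign throughout, and the change of Chac1 at 1 µM was -2.34 to -0.26 over the arrays left out at that dose. Leaving out each array gave member medians of -0.01 to 0.05 at 10 nM, -0.01 to 0.05 at 100 nM and 0.01 to 0.07 at 1 µM. Fitted per probe, 1 of 30357 probes passed at 1 µM, 1 in the F test over doses and 1 in the trend, none of them a probe of a member. Per probe, 13154 probes and 23 of the members' 46 probes passed in control cells against the reference, in place of 6695 genes and 15 members. Over replicate numbers the count of 2 genes became 1 without centring, with quantile normalization, with probes measured on at least 1 array per group or per probe, and 0 with probes measured on all 12 arrays; leaving out each array gave 0 to 2. With the replicate block, fixed or random, 0 genes passed at each dose. The numbers were not treated as pairs in the main fit, as the labels do not say what arrays of a number share. Deviations from the group mean correlated at -0.11 to 0.28 between arrays of the same number (median 0.12). Between arrays of different number and group they correlated at -0.34 to 0.20 (median -0.05). Among the arrays of other groups, 8 of 12 arrays correlated best with one of their own number. Signal over background is unknown, so the precision of dim spots cannot be judged.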
